A study of Mus musculus with 468 samples.

Results

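The transcripts examined here belong to heat production that does not use UCP1: Ckb, Ckmt2, Slc6a8, Gatm, Gamt and Alpl of the creatine cycle, and Atp2a2 of calcium cycling. They were taken from the table of counts by gene symbol, and the rule itself used no measured value. Of the 7 genes, 6 were found among the 23180 genes of the table, and all 6 were among the 18380 genes that reached 10 counts in at least a 0.5 share of libraries. Ckmt2 was not analysed here. The libraries came from the adipose tissue of Diversity Outbred (DO) mice, an outbred stock in which the genomes of several inbred founder strains are mixed, so that each animal has its own genotype. Every mouse ate a diet rich in fat and sugar (45 percent fat per the labels) and gave 1 library. There was thus 1 group without an untreated or lean control, and the questions asked were how much each transcript varied among mice and what it varied with. The fat pad was gonadal per the methods of the study, and mice of both sexes from several generations of the stock were used, but the labels assign neither sex nor generation to a mouse.

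UCP1, the uncoupling protein of brown and beige adipocytes, lets protons return to the mitochondrial matrix without ATP being made, so that the energy of respiration is lost as heat. In the creatine cycle, creatine is phosphorylated at the expense of ATP and the phosphate is removed again without work being done. SLC6A8 imports creatine, GATM and GAMT make it from arginine, glycine and a methyl group, CKB and CKMT2 phosphorylate it, and ALPL, the tissue-nonspecific alkaline phosphatase, removes the phosphate. In calcium cycling, ATP2A2 (SERCA2) pumps calcium into the endoplasmic reticulum at the cost of ATP, and ryanodine and inositol trisphosphate receptors let it out again. These genes also serve cells other than adipocytes: CKB buffers ATP in smooth muscle and brain, and ATP2A2 is the pump of heart and smooth muscle.

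The genes lie on 6 chromosomes (GRCm38). Ckb (ENSMUSG00000001270) occupies chromosome 12 from 111669361 to 111672338, Gatm (ENSMUSG00000027199) chromosome 2 from 122594467 to 122611303, Gamt (ENSMUSG00000020150) chromosome 10 from 80258151 to 80261012, Alpl (ENSMUSG00000028766) chromosome 4 from 137741733 to 137796384 and Atp2a2 (ENSMUSG00000029467) chromosome 5 from 122453513 to 122502225, all on the minus strand. Slc6a8 (ENSMUSG00000019558) lies on the plus strand of chromosome X, from 73673150 to 73682502, and Ucp1 (ENSMUSG00000031710) on that of chromosome 8, from 83290352 to 83298452. Provisional gene models (Gm43359, Gm43360 and Gm43361) on both strands overlap Atp2a2, and no annotated gene overlaps the other 5. The promoters of the kinase that followed smooth muscle markers most closely, of both enzymes of creatine synthesis and of Ucp1 are shown because results below turn on these transcripts. Each is the 250 bases before the start site in RefSeq (GRCm38.p6), at chr12:111672339-111672588 (minus) for Ckb, chr2:122611278-122611527 (minus) for Gatm, chr10:80261013-80261262 (minus) for Gamt and chr8:83290098-83290347 (plus) for Ucp1, written 5′ to 3′ on the strand of the gene. Capitals mark matches on either strand to TATAAA (the TATA box), CCAAT (the CCAAT box), GGGCGG (the GC box), TGACG (the core of a cAMP response element) or AGGTCA (the core bound by nuclear receptors), none of which overlapped another match here.
Ckb: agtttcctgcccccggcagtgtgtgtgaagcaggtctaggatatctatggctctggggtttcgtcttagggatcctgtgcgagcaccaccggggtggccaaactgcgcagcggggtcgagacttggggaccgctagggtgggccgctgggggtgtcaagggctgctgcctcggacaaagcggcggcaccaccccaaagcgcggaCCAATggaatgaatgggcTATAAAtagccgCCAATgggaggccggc
Gatm: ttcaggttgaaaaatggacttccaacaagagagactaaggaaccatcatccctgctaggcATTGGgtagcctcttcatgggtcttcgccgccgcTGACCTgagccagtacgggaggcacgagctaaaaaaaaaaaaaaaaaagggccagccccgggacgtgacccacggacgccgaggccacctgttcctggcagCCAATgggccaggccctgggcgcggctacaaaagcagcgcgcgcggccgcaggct
Gamt: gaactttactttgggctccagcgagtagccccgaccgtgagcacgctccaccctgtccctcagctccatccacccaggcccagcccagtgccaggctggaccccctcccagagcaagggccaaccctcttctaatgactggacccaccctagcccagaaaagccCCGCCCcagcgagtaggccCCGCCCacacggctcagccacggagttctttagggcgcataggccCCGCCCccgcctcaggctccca
Ucp1: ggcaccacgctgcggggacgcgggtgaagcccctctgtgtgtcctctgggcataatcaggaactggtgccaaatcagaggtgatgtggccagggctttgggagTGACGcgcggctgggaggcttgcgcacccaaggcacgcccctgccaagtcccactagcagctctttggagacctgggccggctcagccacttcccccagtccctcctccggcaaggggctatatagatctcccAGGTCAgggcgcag
Ckb held a TATA box 28 bases before its start site and a CCAAT box on each side of it. Gatm held a pair of CCAAT boxes, in opposite directions, and 1 nuclear receptor core. Gamt held 3 GC boxes and none of the other letters, and Ucp1 held 1 cAMP response element core and 1 nuclear receptor core. Among 32851 promoters of this length, 12.4% held a TATA box, 33.9% a CCAAT box, 32.7% a GC box, 17.8% TGACG and 14.02% AGGTCA. A match describes letters in this window and does not show a bound site.

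Total expected counts per library ranged from 35298813 to 137760410 (median 82043357). Markers of adipocytes were abundant in every library, with a summed level over the 12 genes of that list of 10072 to 54238 CPM (counts scaled to a common library total). Of the libraries, 48.5% had no counts from Y chromosome genes and 51.5% had such counts. Ucp1 followed this split, with a median of 448.6 CPM (0.216 to 4590) in the libraries without and 3.02 CPM (0.0568 to 85.7) in those with Y chromosome counts, and Xist and the Y chromosome genes went with 63.2% of the variance of its log2 CPM. Relations to Ucp1 are therefore given within each set of libraries beside the pooled fit. A highest 0.1 share of the libraries was set apart by rank on the summed level of 9 smooth muscle markers. These 46 libraries (8 without and 38 with Y chromosome counts) had 3091 CPM or more. The highest value below this cut was 3075 CPM, so no gap separated them. Over all libraries the median was 637.4 CPM and the highest value 14954 CPM. Because these libraries were also high in Ckb and Atp2a2, the slopes on Ucp1 and the main relations of both genes are given with and without them. Mouse DO283 held 13880 CPM of the 2 epididymis markers in the table, against a median of 0.402 CPM.

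Atp2a2 was the most abundant of the 6 transcripts and the least variable. Its level was 187.9 CPM in the lowest, 250 CPM in the median and 721 CPM in the highest library (mean 265.8 ± 62.1 CPM, SD over all libraries). The median was 250 CPM in both sets of libraries, and Xist and the Y chromosome genes went with 2.16% of its variance. Ckb, the cytosolic brain-type creatine kinase, ranged from 14.98 through a median of 37.5 to 473.7 CPM (52.5 ± 42.6 CPM), a 31.6-fold range. Its median was 28.6 CPM in the libraries without and 57.5 CPM in those with Y chromosome counts, and the ranges overlapped, since both of the highest libraries had no Y chromosome counts.

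The creatine importer Slc6a8 ranged from 11.2 through 21.9 to 353.6 CPM (27.9 ± 20.6 CPM), with medians of 17.5 CPM without and 32.9 CPM with Y chromosome counts. Gatm, which makes guanidinoacetate, ranged from 4.06 through 13.5 to 55.2 CPM (14.96 ± 7.04 CPM), with medians of 10.9 and 16.7 CPM. Gamt, which methylates guanidinoacetate to creatine, ranged from 1.69 through 16.01 to 36.6 CPM (16.4 ± 7.04 CPM), with medians of 11.8 and 20.1 CPM. All 3 were thus higher in the median with Y chromosome counts, as was Ckb, while their ranges overlapped. Alpl was the lowest of the 6 and went the other way, from 1.98 through 6.65 to 54.4 CPM (7.55 ± 4.22 CPM), with medians of 7.74 and 5.86 CPM. Xist and the Y chromosome genes went with 41.4% of the variance of log2 CPM for Slc6a8, 30.5% for Ckb, 30.04% for Gamt, 24.3% for Gatm and 12.7% for Alpl. No test between the sets was made, since they were defined from the data. The biological coefficient of variation around the pooled fit on Ucp1 (edgeR) was 0.532 for Ckb, above 75.5% of all tested genes, between 0.379 and 0.421 for Slc6a8, Gatm, Gamt and Alpl, and 0.204 for Atp2a2, above 36.2%.

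**Figure D1:**
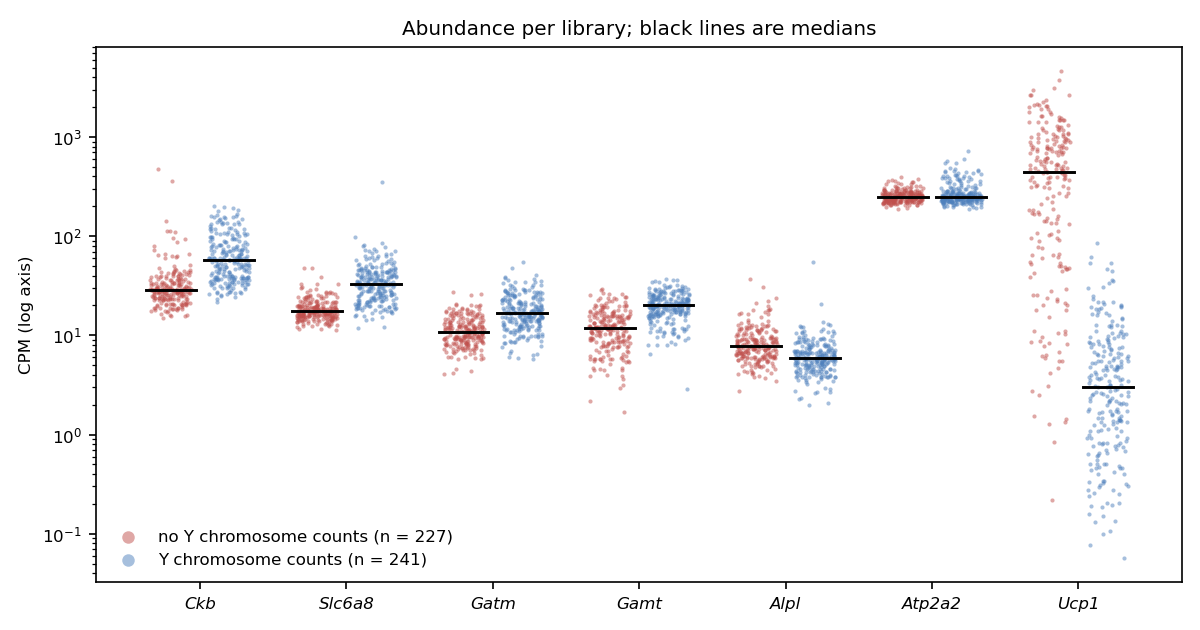
Level of each gene in CPM on a log axis, with 1 point per library, in the libraries without (red) and with (blue) Y chromosome counts; black lines are medians. Ucp1 spans the widest range and separates the sets, with medians of 448.6 and 3.02 CPM, whereas Atp2a2 has a median of 250 CPM in both.

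Levels of different genes can be compared only per length. Per kilobase of exon, the median levels fell from Atp2a2 (41.1 CPM per kb) through Ckb (12.96), Gamt (11.1), Ucp1 (7.78), Gatm (4.50) and Slc6a8 (4.21) to Alpl (1.65). Atp2a2 exceeded Ckb in 97.2% of the libraries, and Slc6a8 exceeded Alpl in 95.3%. Ckb exceeded Gamt in 72.2%. The neighbours Gatm and Slc6a8 did not differ beyond their spread, as Gatm was the higher in 47.4% of the libraries. Over all libraries, Gamt exceeded Ucp1 in 53.8% and Ucp1 exceeded Gatm in 56.4%, but these shares pool sets that differed widely in Ucp1. Before division by length, the median of Ucp1 was 448.6 CPM without and 3.02 CPM with Y chromosome counts. Those of Gamt were 11.8 and 20.1 CPM, and those of Gatm 10.9 and 16.7 CPM. The shares within each set were not computed, and the pooled ones do not show similar levels in either.

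The relation of each transcript to Ucp1 addressed whether genes of the alternative heat cycles rose or fell with the classical one. Among the libraries without Y chromosome counts, Ckb, Slc6a8, Gatm and Gamt fell as Ucp1 rose, while Alpl and Atp2a2 rose. The slopes, in log2 CPM per log2 unit of Ucp1, were -0.123 ± 0.0170 (SE) for Ckb, -0.0582 ± 0.00724 for Slc6a8, -0.0910 ± 0.0101 for Gatm and -0.117 ± 0.0142 for Gamt. Those of Alpl and Atp2a2 were 0.0469 ± 0.0129 and 0.0341 ± 0.00388. Without the 8 libraries highest in smooth muscle markers, Ckb had -0.0629 ± 0.0120, Alpl 0.0869 ± 0.0114 and Atp2a2 0.0386 ± 0.00391. With those libraries kept, all 6 passed edgeR's quasi-likelihood test with Benjamini-Hochberg adjustment over all genes (adjusted p from 0.000651 for Alpl to 6.19e-16 for Gatm). But so did 69.8% of the genes tested, 29.7% rising and 40.2% falling. The median slope over all genes was -0.00765. In these bulk samples, fewer cells of a type and less RNA per cell cannot be told apart.

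Pearson's r with Ucp1 in the same libraries was -0.39 for Ckb, -0.43 for Slc6a8, -0.49 for Gatm, -0.45 for Gamt, 0.32 for Alpl and 0.50 for Atp2a2. Spearman's rho was -0.44, -0.32, -0.53, -0.54, 0.49 and 0.63 in the same order, and every p was 1e-05, the smallest that the two-sided permutation test with 100000 resamples can give. Without the 2 libraries farthest from the median of Ucp1, r ranged from -0.50 for Gatm to 0.52 for Atp2a2, and each kept its sign.

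**Figure D2:**
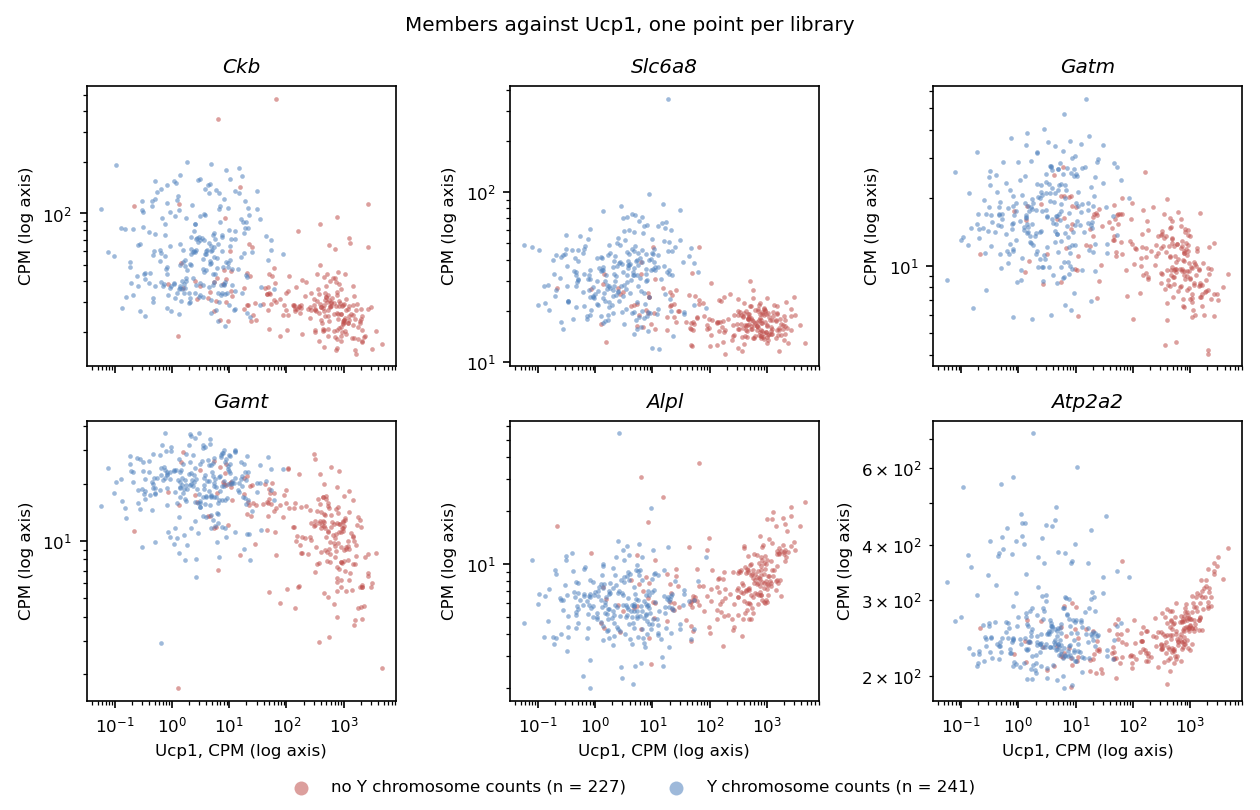
Level of each of the 6 transcripts (vertical, CPM) against Ucp1 (horizontal, CPM), both on log axes, with 1 point per library without (red) or with (blue) Y chromosome counts. In the red libraries Ckb, Slc6a8, Gatm and Gamt fall and Alpl and Atp2a2 rise with Ucp1 (r from -0.49 to 0.50), and in the blue ones r lies between -0.07 and 0.14.

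Among the libraries with Y chromosome counts, where Ucp1 did not exceed 85.7 CPM, 1 of the 6 passed the test, against 19.8% of all genes, 11.9% rising and 7.86% falling. Slc6a8 rose, by 0.0743 ± 0.0202 (edgeR, adjusted p = 0.00402). The others had slopes of 0.00776 ± 0.0237 for Ckb, 0.0467 ± 0.0183 for Gatm (adjusted p = 0.0542), -0.00177 ± 0.0149 for Gamt, 0.000223 ± 0.0191 for Alpl and -0.0146 ± 0.0110 for Atp2a2. Pearson's r was 0.14 for Slc6a8 (p = 0.0353, rho = 0.14) and 0.13 for Gatm (p = 0.0390, rho = 0.13). It lay between -0.07 and 0.03 for the other 4, with permutation p of 0.303 or more. Without the libraries highest in smooth muscle markers, DO283 among them, the slope of Slc6a8 was 0.0527 ± 0.0208 and no longer passed (adjusted p = 0.0773), whereas Ckb, at 0.0642 ± 0.0224, did (adjusted p = 0.0437), among 11.6% of all genes. Atp2a2 had 0.0132 ± 0.00600 there and did not pass (adjusted p = 0.133).

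Slopes in the sets differed by more than their error for 5 of the 6 genes, by an interaction term added after the data were seen (51.8% of all genes passed that test). The slope with minus that without Y chromosome counts was 0.130 ± 0.0294 for Ckb (adjusted p = 4.82e-05), 0.132 ± 0.0201 for Slc6a8 (1.15e-09), 0.138 ± 0.0203 for Gatm (4.32e-10) and 0.116 ± 0.0213 for Gamt (5.97e-07). It was -0.0487 ± 0.0108 for Atp2a2 (3.73e-05), and -0.0466 ± 0.0229 for Alpl did not pass (adjusted p = 0.0758, edgeR in each case). The difference in slope cannot be told apart from the difference in the range of Ucp1 between the sets.

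Over all libraries, the fit gave slopes of -0.124 ± 0.00960 for Ckb, -0.102 ± 0.00759 for Slc6a8, -0.0829 ± 0.00678 for Gatm, -0.102 ± 0.00678 for Gamt and 0.0522 ± 0.00662 for Alpl. These 5 passed edgeR's test (adjusted p of 6.06e-14 or less), as did 78.6% of all genes (35.9% rising and 42.7% falling), so that the share of members called was close to the background. With the oxidative phosphorylation score as covariate, Ckb (-0.0121, adjusted p = 0.549) and Slc6a8 (0.0169, adjusted p = 0.205) no longer passed, and Gatm rose (0.0417, adjusted p = 8.38e-05). Gamt still fell (-0.0372, adjusted p = 0.00362) and Alpl still rose (0.0305, adjusted p = 0.0343) in that fit. With the adipocyte score, Ckb, Slc6a8 and Gatm had -0.0617, -0.0468 and -0.0410, all of which passed. With the macrophage score, Gatm had -0.0292, Alpl 0.0318 and Atp2a2 -0.00895 (adjusted p = 0.0244), which passed too. Genes with an unadjusted p under 0.05 (edgeR) numbered 9975, 13625 and 13319 in these fits, in the order given. In the fit without covariates, Atp2a2 did not pass (-0.00519 ± 0.00331, adjusted p = 0.141). Without the 46 libraries highest in smooth muscle markers its pooled slope was 0.0140 and passed (adjusted p = 2.96e-10), with 77.8% of all genes. With Xist and the Y chromosome genes as covariates, Slc6a8 no longer passed (-0.0128 ± 0.0100, adjusted p = 0.262) and Atp2a2 did, at 0.0159 ± 0.00538 (adjusted p = 0.00613), with 63.8% of all genes called.

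Other genes listed under creatine handling were followed in the same fits, in a list of 5 that also held Phospho1, whose substrates below are not creatine. Without Y chromosome counts, 2 (Phospho1 and Ckm) rose and 3 fell with Ucp1 (median slope -0.0419), where 29.7% of all genes rose and 40.2% fell. Phospho1, a phosphatase of phosphocholine and phosphoethanolamine, had 68.7 ± 100.1 CPM (SD over all libraries) and rose by 0.475 (adjusted p = 7.97e-78), and it also rose with Y chromosome counts, by 0.117 (adjusted p = 3.47e-12, edgeR). The creatine transporter Slc16a12 (29.8 ± 17.5 CPM) fell by 0.147 and did not pass in the libraries with Y chromosome counts, where its slope was 0.0166. Slc16a9, a carrier of the same family, fell by 0.0419, and the mitochondrial kinase Ckmt1, at 0.836 ± 3.37 CPM, fell by 0.144. The muscle kinase Ckm rose by 0.294 (adjusted p = 0.0233), from 5.81 ± 32.7 CPM. It is a skeletal muscle marker, and the part of muscle RNA in its slope was not tested.

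Of 10 genes that supply arginine, glycine or methyl groups for creatine synthesis, 4 rose and 2 fell without Y chromosome counts, and none rose and 1 fell with them, against 29.7% and 40.2% of all genes in the former and 11.9% and 7.86% in the latter. Shmt1, the cytosolic serine hydroxymethyltransferase that makes glycine, rose by 0.106, whereas Arg2, the mitochondrial arginase, fell by 0.147. Mat2b, the regulatory subunit of methionine adenosyltransferase, rose by 0.0222, and Oat, the aminotransferase of ornithine, fell by 0.0468.

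Of 20 other genes of calcium release, uptake and storage, 18 were analysed and 17 passed the filter, Sln and Strit1 were not analysed here, and Mrln was below the filter. Without Y chromosome counts, 6 rose and 9 fell, with a median slope of -0.0256, against 29.7% rising and 40.2% falling over all genes. The inositol trisphosphate receptors Itpr2 and Itpr1 rose by 0.129 and 0.0571. Fkbp1a, a protein that binds ryanodine receptors, fell by 0.0302. Atp2a1, the fast-muscle SERCA pump, rose by 0.452 (adjusted p = 0.00233), from 9.58 ± 93.6 CPM, and is a skeletal muscle marker as well. Ryr2, the ryanodine receptor paired with ATP2A2 in calcium cycling of beige fat and like Pln below named after its values were seen, had 15.6 ± 8.75 CPM. It rose by 0.139 in the libraries without and by 0.0773 in those with Y chromosome counts (adjusted p = 0.00668 in the latter). Pln, an inhibitor of ATP2A2, had 1.85 ± 1.71 CPM and fell by 0.0496 in the former (adjusted p = 0.0225, edgeR).

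The counts of the pathway and marker lists are to be read against all genes, of which 29.7% rose and 40.2% fell without and 11.9% rose and 7.86% fell with Y chromosome counts. Brown and beige fat genes rose with Ucp1 in 20 of 22 without and 16 of 22 with Y chromosome counts, led by Cox7a1, Cpt1b, Ppara and Cidea. Oxidative phosphorylation genes rose in 23 of 23 and 21 of 23, and genes of triglyceride breakdown and resynthesis in 9 of 10 and 1 of 10. Adipocyte genes rose in 8 of 12 without Y chromosome counts. All 12 macrophage genes and all 9 smooth muscle genes fell there, as did 10 of 10 mesothelium genes, 8 of 10 progenitor genes and 6 of 10 endothelial genes. With Y chromosome counts, by contrast, 9 of 12 macrophage genes rose, whereas 5 of 9 smooth muscle genes and 7 of 10 mesothelium genes fell in that set too. Of the 12 adipocyte genes, 0 rose and 2 fell with Y chromosome counts. Skeletal muscle genes rose in 12 of 14 without and in 1 of 14 with Y chromosome counts, Schwann cell genes in 6 and 0 of 8, neutrophil genes in 1 and 2 of 5 and liver genes in 0 of 8 in both, while 6 of 8 liver genes fell with Y chromosome counts. The only pancreas gene past the filter, Cela1, fell without Y chromosome counts, and of the 2 epididymis genes 1 rose with them. All these calls are from edgeR at an adjusted p under 0.05 over all genes, and several of the genes sit on more than 1 list.

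Among themselves, the importer and the kinase of the creatine cycle varied together most closely. Ckb and Slc6a8 had r = 0.63 (rho = 0.56) in the libraries without and 0.74 (rho = 0.80) in those with Y chromosome counts, and 0.80 over all. Each permutation p was 1e-05, and limma gave adjusted p of 4.66e-24, 1.61e-41 and 1.01e-101 over all genes, with Ckb as the covariate. Across 5 blocks of consecutive mouse numbers r ranged from 0.74 to 0.88. Gatm went with both, at r = 0.37 and 0.31 with Ckb and 0.39 and 0.41 with Slc6a8 in the sets without and with Y chromosome counts. The 2 synthesis enzymes Gatm and Gamt had r = 0.38 (adjusted p = 1.09e-08) and 0.23 (adjusted p = 0.000543, limma). Their pooled r of 0.49 was 0.10 with the oxidative phosphorylation score as covariate and no longer passed (adjusted p = 0.0507, limma).

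Gamt followed Ckb and Slc6a8 without Y chromosome counts (r = 0.23 and 0.26, and 0.44 and 0.34 without the libraries highest in smooth muscle markers). With them, r was -0.07 and -0.06 (adjusted p = 0.319 and 0.453, limma), so that the pooled r of 0.36 and 0.39 did not hold within that set. In all, limma called 12 of 15 pairs over all libraries, 12 without and 6 with Y chromosome counts. The share of all genes called with the same covariates was 77.2%, 55.3% and 60.9% in these sets for Ckb, 78.6%, 58.9% and 64.8% for Slc6a8, and 78.2%, 66.4% and 62.9% for Gatm. It was 78.3%, 65% and 62% for Gamt and 58.9%, 41.3% and 25.3% for Alpl. Atp2a2 had the most divided relations. It went against Gatm (r = -0.42) and Gamt (r = -0.38) and with Alpl (r = 0.46) without Y chromosome counts, and these 3 had r of 0.07, -0.07 and 0.05 with them.

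Ckb and Atp2a2, kinase and pump, had r = -0.04 (rho = -0.21) without and 0.72 (rho = 0.67) with Y chromosome counts (limma adjusted p = 0.647 and 3.01e-37). Without the libraries highest in smooth muscle markers, r was -0.23 (adjusted p = 0.00162) and 0.54 (adjusted p = 1.36e-15). The sign thus differed between the sets with and without these libraries, a difference that was not tested. Ckb and Alpl had r = 0.31 without Y chromosome counts (rho = 0.01), but 0.16 without the 2 libraries farthest from the median of Ckb and 0.04 without those highest in smooth muscle markers.

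**Figure D3:**
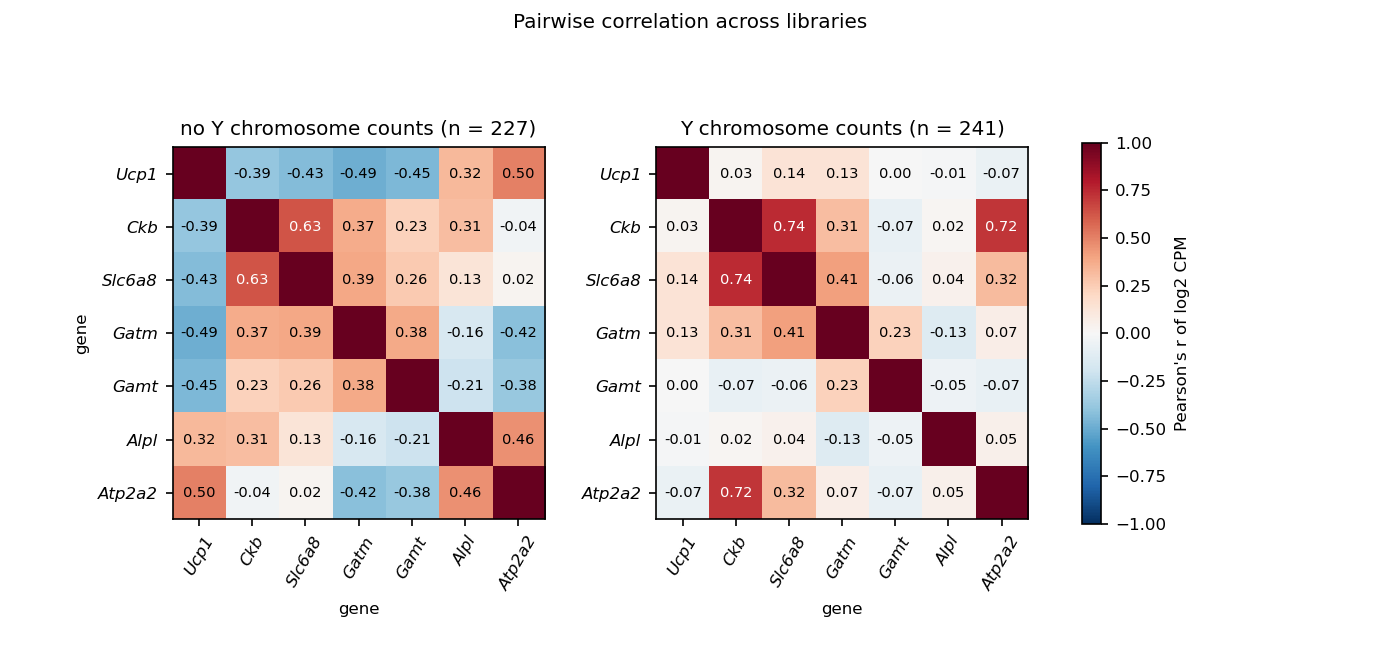
Pearson's r of log2 CPM for each pair of genes in the libraries without (left) and with (right) Y chromosome counts, from -1 (blue) to 1 (red), with the value in each cell. Ckb and Slc6a8 are paired in both panels (0.63 and 0.74), whereas the correlations of Ucp1 are marked in the left panel and near 0 in the right, and Ckb with Atp2a2 is -0.04 in the left and 0.72 in the right.

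Scores of 13 marker and pathway lists (the mean z-score of the log2 CPM of their genes) were set against each transcript, which with the relations above made 99 relations in each set of libraries. Ckb followed smooth muscle markers, with r = 0.81 (rho = 0.62, adjusted p = 8.62e-52) without and 0.59 (rho = 0.46, adjusted p = 6.39e-23, limma) with Y chromosome counts, where 47.9% and 51.4% of all genes were called. Without the libraries highest in these markers, r was 0.67 and 0.23 (adjusted p = 4.71e-28 and 0.00471, with 39% and 32.3% of all genes called), so the relation held beyond them. All 9 smooth muscle markers passed the filter, and their summed level ranged from 240.9 to 14954 CPM in the libraries without and from 294.3 to 10772 CPM in those with Y chromosome counts.

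The relation of Atp2a2 to the smooth muscle score did not pass without Y chromosome counts (r = -0.04, rho = -0.16, adjusted p = 0.627), although the highest level of these markers was found there. Without the libraries highest in these markers it was negative and passed (r = -0.19, adjusted p = 0.0178, limma). With Y chromosome counts it had r = 0.83 (rho = 0.49, adjusted p = 1.41e-59, limma), which fell to 0.38 (adjusted p = 7.97e-07) without the libraries highest in these markers. It also had r = 0.65 with the skeletal muscle score and 0.64 with the Schwann cell score in that set (32.6% and 56.5% of all genes called), and 0.00 and 0.06 in the other. Without the libraries highest in smooth muscle markers, the former were 0.19 and 0.17. The skeletal muscle score included Atp2a1 and other genes of calcium handling, and the part of muscle RNA in the level of Atp2a2 was not tested.

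In the libraries without Y chromosome counts Atp2a2 instead followed the oxidative phosphorylation score (r = 0.63, adjusted p = 2.1e-25) and the brown and beige fat score (r = 0.59, adjusted p = 9.53e-22, limma), with 74.8% and 71.6% of all genes called. With Y chromosome counts these were -0.28 (adjusted p = 2.91e-05, limma) and -0.03, with 64.2% and 22.2% called. Gatm, Ckb, Slc6a8 and Gamt went against the oxidative phosphorylation score in both sets, with r from -0.66 for Gatm to -0.25 for Gamt. Alpl had r = 0.39 with it (adjusted p = 4.04e-09, limma) without and 0.00 with Y chromosome counts, a difference that was not tested.

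**Figure D4:**
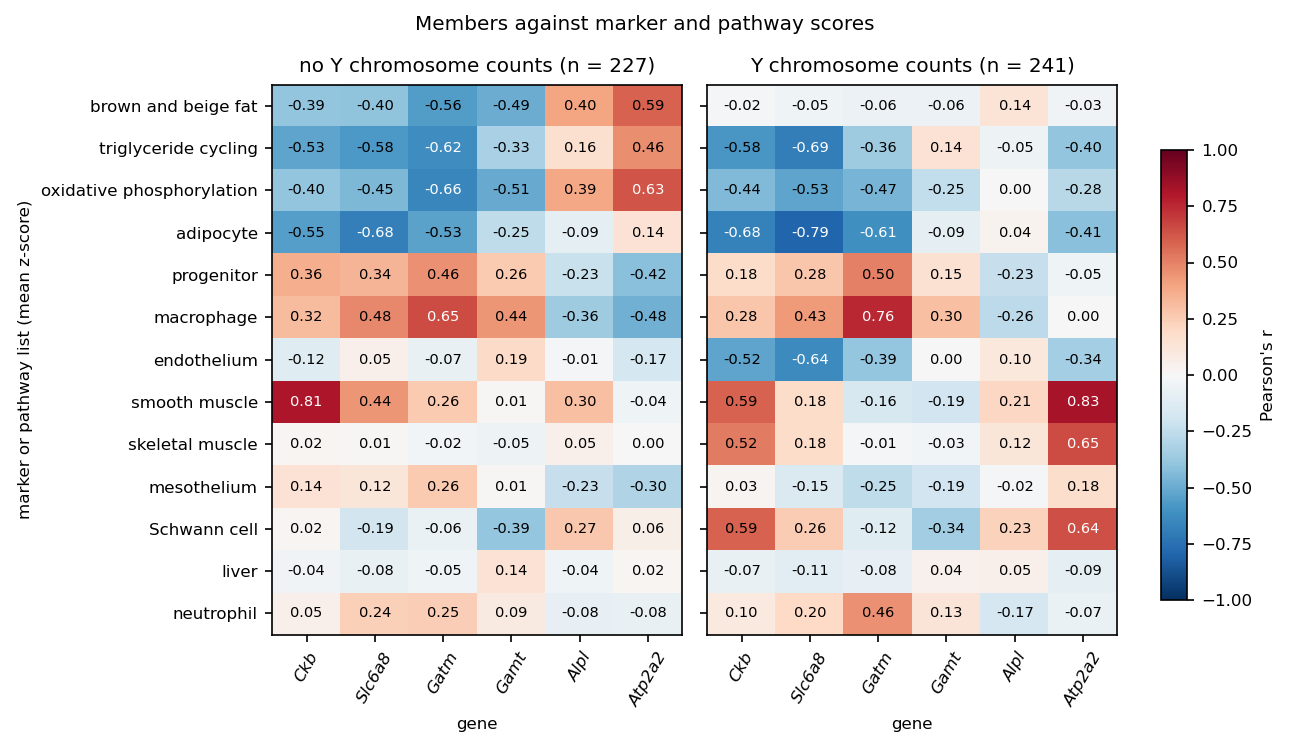
Pearson's r of each transcript (columns) with the score of each marker or pathway list (rows) in the libraries without (left) and with (right) Y chromosome counts, from -1 (blue) to 1 (red). The adipocyte row is negative for Ckb, Slc6a8 and Gatm in both panels (-0.53 to -0.79), the macrophage row peaks at Gatm (0.65 and 0.76), and the smooth muscle row peaks at Ckb on the left (0.81) and at Atp2a2 on the right (0.83).

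Gatm followed macrophage markers, with r = 0.65 (rho = 0.65, adjusted p = 4.08e-28) without and 0.76 (rho = 0.76, adjusted p = 3.93e-45, limma) with Y chromosome counts, where 70.1% and 70.2% of all genes were called. All 12 markers passed the filter, with summed levels from 406.6 to 3121 CPM and from 311.6 to 6191 CPM. Gamt and Slc6a8 followed this score less closely (r = 0.44 and 0.30, 0.48 and 0.43), a difference that was not tested. Slc6a8 went against adipocyte markers, with r = -0.68 (rho = -0.64, adjusted p = 3.54e-30) and -0.79 (rho = -0.77, adjusted p = 1.39e-51, limma), where 66% and 69.3% of all genes were called, as did Ckb (-0.55 and -0.68) and Gatm (-0.53 and -0.61). The parts of macrophage and adipocyte RNA in these levels were not tested. With the adipocyte score as covariate, the pooled r of Ckb with Slc6a8 was 0.55, and those of Gatm with Ckb and with Slc6a8 were 0.09 and 0.10.

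**Figure D5:**
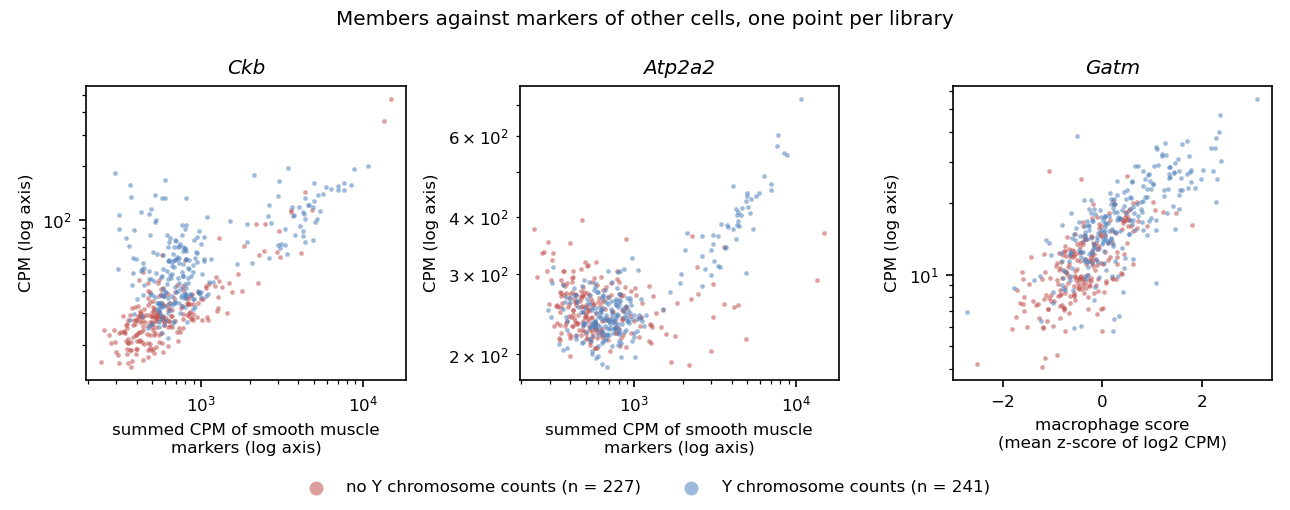
Level of Ckb and Atp2a2 (vertical, CPM, log axis) against the summed CPM of smooth muscle markers (log axis), and of Gatm against the macrophage score, with 1 point per library without (red) or with (blue) Y chromosome counts. Values of r are those with the list scores (mean z-scores), also where summed CPM is shown. Ckb rises with smooth muscle markers in both sets (r = 0.81 and 0.59) and Atp2a2 in the blue libraries alone (0.83 against -0.04). Gatm rises with the macrophage score in both (0.65 and 0.76).

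Of the other lists, the endothelial score went against Slc6a8 and Ckb with Y chromosome counts (r = -0.64 and -0.52) and had r of 0.05 and -0.12 without. The progenitor score followed Gatm (0.46 and 0.50), the neutrophil score followed Gatm with Y chromosome counts (0.46), and the Schwann cell score went against Gamt in both (-0.39 and -0.34). The score of triglyceride breakdown and resynthesis went against Slc6a8 (-0.58 and -0.69). The mesothelium score had r between -0.30 and 0.26 with the 6 transcripts. The liver score had r between -0.11 and 0.14, and no relation to it passed limma's adjusted threshold, with 1.83% and 1.86% of all genes called.

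For Ckb, Slc6a8, Gatm, Alpl and Atp2a2, the highest library had many transcripts of smooth muscle, macrophage or epididymis markers. The highest in Gamt, DO553 (36.6 CPM), had 773.2 CPM of smooth muscle and 1028 CPM of macrophage markers, against medians of 637.4 and 1221 CPM. Mice DO137 (473.7 CPM) and DO232 (360.2 CPM) were highest in Ckb, with summed smooth muscle markers of 14954 and 13465 CPM, and they were also the second and the third highest in Alpl (37.1 and 31.02 CPM). Their Atp2a2 was 367.9 and 290.3 CPM, below the 551.4 CPM of the fourth highest library. Mouse DO181 was highest in Atp2a2 (720.7 CPM) and the third in Ckb (201.1 CPM), with 10772 CPM of smooth muscle markers. The other 3 of the 4 highest in Atp2a2, DO178, DO074 and DO109, had 7681 to 8456 CPM of these markers. DO283, the library with epididymis markers, had 353.6 CPM of Slc6a8, against 97.1 CPM in the second highest, DO200. DO379 had 54.4 CPM of Alpl and 1134 CPM of epididymis markers. DO088 was highest in Gatm (55.2 CPM), the third in Slc6a8 (85.2 CPM) and the highest of all libraries in macrophage markers (6191 CPM).

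At the low end, DO046 had 14.98 CPM of Ckb with 1625 CPM of Ucp1, and DO158 had 4.06 CPM of Gatm with 2019 CPM of Ucp1. DO349 had 1.69 CPM of Gamt, the lowest level, with 1.28 CPM of Ucp1 and no Y chromosome counts. Without DO283 and DO379, the pooled slopes on Ucp1 of Slc6a8 (-0.102) and Alpl (0.0564) were called as before.

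Among 9502 other genes that averaged 10 CPM or more, those whose log2 CPM was most like that of a transcript over all libraries were found by Pearson's r, as a description. For Ckb they included Tbc1d1 (0.89) and Flna (0.81). For Slc6a8 they included Cadm1 (0.86) and Cd9 (0.85). For Gatm they were Ehd4 (0.81), Adcy7 (0.80) and Cyth4 (0.80), and for Gamt Olfm1 (0.86), Tspan17 (0.85) and Anxa2 (0.85). These 10 pairings had r of 0.58 to 0.84 in each set of libraries. Alpl had no close partner, with Khdrbs3 (0.52), Rab3ip (0.49) and Nfyc (0.49). The genes most like Atp2a2, Ppp1r12a (0.75), Crem (0.71) and Ptgs2 (0.69), were so through the libraries with Y chromosome counts (0.89, 0.81 and 0.83), against 0.09, 0.30 and -0.16 in the others. For Ucp1 they were Cox7a1 (0.94), Cpt1b (0.93) and Fabp3 (0.92), which had 0.95, 0.96 and 0.94 without and 0.67, 0.74 and 0.51 with Y chromosome counts.

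Mouse and library numbers served as stand-ins for batches that the labels do not name. Ckb, Slc6a8 and Gamt rose with mouse number, by 0.104 ± 0.0269, 0.0835 ± 0.0221 and 0.0710 ± 0.0198 log2 units per 100 numbers (edgeR, adjusted p = 0.0022, 0.00272 and 0.00458), as 12.1% of all genes did. With Xist and the Y chromosome genes as covariates these slopes were 0.0428, 0.0151 and 0.0314 and none passed (adjusted p of 0.245 or more). Gatm, Alpl and Atp2a2 did not pass with mouse number, at 0.0288, -0.0134 and 0.0201, and none of the 6 passed with library number, where 0.272% of all genes did. In each of 5 blocks of consecutive mouse numbers and 5 of library numbers, the slopes on Ucp1 of Ckb, Slc6a8, Gatm and Gamt were negative. Each block pooled both sets (44 to 58 libraries with Y chromosome counts), so these slopes include the difference between the sets.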

How the data were processed

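Adipose RNA of the DO mice was sequenced as poly(A) libraries with paired ends. The authors aligned the read ends to the transcriptomes of the founder strains and estimated gene abundance with EMASE in GBRS, and they deposited expected counts per gene (66.8% of the values were whole within 1e-06) and a second table of log2 values from the variance-stabilising transformation (VST) of DESeq2. The annotation was GRCm38, all 23180 gene IDs were found in the GENCODE annotation of that build, and 99.2% had the same position. How reads shared by near-identical copies or by both strands were assigned beyond this is not given in the sources used here.

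For edgeR and DESeq2, each expected count was rounded to the nearest whole number. Genes with at least 10 counts in a share of 0.5 of the libraries were tested (18380), libraries were scaled by TMM (factors 0.580 to 1.37), and log2 CPM had a prior count of 2. Slopes on log2 CPM of Ucp1 and on mouse and library numbers were tested over all genes with edgeR's quasi-likelihood test, and pairs and list scores with limma on log2 CPM, each with Benjamini-Hochberg adjustment at 0.05. Pearson's r and Spearman's rho had two-sided permutation tests with 100000 resamples. R 4.3.3, edgeR 4.0.16, limma 3.58.1, DESeq2 1.42.0, Python 3.11.15 and numpy 2.4.6 were used, and the fits were tested on simulated data. The members and the 18 gene lists were chosen with earlier results of these data known. Lists with fewer than 5 genes past the filter (pancreas and epididymis) were not scored, and the 3 lists of creatine and calcium genes were counted only. Ckm, Atp2a1, Ryr1 and Casq1 of these lists were also on the skeletal muscle list and entered its score. Named were the members and Ucp1, every gene of creatine handling, up to 4 genes of each other list with the lowest p on Ucp1, the 3 genes most like each member, and libraries at the ends of a member's range. Some of the genes that this rule names are not reported here. Depth was 35298813 to 137760410 counts per library, and the lowest count of a member in any library was 140, so that counting error of the members was small beside the spread among mice. The lowest count of Ucp1, the covariate of the slopes, was 4, and the effect of its counting error on the slopes was not tested. Alternatives were other scalings, filters, tools, prior counts, covariates and library sets. Libraries were not replicates, as each mouse has its own genotype, so the tests set each relation against the spread among mice. Mice were treated as independent, kinship entered no fit, and the main fits held no covariate for sex or generation.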

Additional observations from a re-analysis of the deposited data

Results flagged for a closer look

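Slopes on Ucp1 differed between the libraries with and without Y chromosome counts for 5 of the 6 transcripts, by the interaction term of edgeR, which 51.8% of all genes also passed. The difference, with minus without, was 0.130 for Ckb, 0.132 for Slc6a8, 0.138 for Gatm, 0.116 for Gamt and -0.0487 for Atp2a2 (log2 CPM per log2 unit of Ucp1). Ucp1 reached 4590 CPM in the libraries without and 85.7 CPM in those with Y chromosome counts, and this difference in range cannot be told apart from the difference between the sets.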

How the results depend on the processing

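Slopes on Ucp1 kept their direction and their side of the threshold in 87.1% of the alternatives, and relations among transcripts or to list scores in 76.9%. In the libraries with Y chromosome counts the slopes were 0.00776 for Ckb, 0.0743 for Slc6a8, 0.0467 for Gatm, -0.00177 for Gamt and 0.000223 for Alpl, and without those highest in smooth muscle markers 0.0642, 0.0527, 0.0489, -0.00714 and -0.00430. Calls over all genes were 3640 and 2127 there, against 14449 in all libraries, and 6 and 7 of 15 pairs passed. Atp2a2 had 0.0341 without Y chromosome counts and 0.0386 also without those highest in smooth muscle markers, 0.0140 without the latter alone, 0.0117 with the smooth muscle score, 0.0159 with Xist and the Y chromosome genes and -0.00895 with the macrophage score as covariate. Slc6a8 had -0.0128 with Xist and the Y chromosome genes. With the oxidative phosphorylation score, Ckb had -0.0121, Slc6a8 0.0169 and Gatm 0.0417, and the count of genes associated with Ucp1 was 8992. Alpl had 0.0219 in its lowest block of mouse numbers.

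Relations that changed sign had the following r. For Ckb with Alpl it was 0.31 without Y chromosome counts and 0.16 given Ucp1. Given Xist and the Y chromosome genes it was 0.15, and given oxidative phosphorylation 0.23. In block 2 of the mouse numbers it was 0.26. For Slc6a8 with Alpl it was 0.13 without and 0.041 with Y chromosome counts, and 0.040, 0.066 and 0.13 given Ucp1, Xist and the Y chromosome genes, and oxidative phosphorylation. For Ckb with Gamt it was -0.074 with Y chromosome counts, -0.0052 there without the libraries highest in smooth muscle markers and -0.041 given oxidative phosphorylation, and for Slc6a8 with Gamt -0.056 and -0.047 in the first and the last of these. For Gatm with Atp2a2 it was -0.29 given the adipocyte score, -0.11 without the libraries highest in smooth muscle markers, and -0.42 and -0.45 without Y chromosome counts with and without them. In the same sets Ckb with Atp2a2 had -0.039 and -0.23, Atp2a2 with the smooth muscle score -0.043 and -0.19, and Slc6a8 with Atp2a2 -0.047 in the latter. Alpl with Atp2a2 had -0.065 in block 4 of the library numbers and -0.040 in block 5 of the mouse numbers. The same pair had -0.029 with Y chromosome counts without the libraries highest in smooth muscle markers.

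With Y chromosome counts, Atp2a2 had -0.034 with the brown and beige, -0.28 with the oxidative phosphorylation and 0.18 with the mesothelium score. Gamt had 0.14 and Alpl -0.054 with the triglyceride score, Alpl -0.00047 with oxidative phosphorylation, Ckb 0.52 and Slc6a8 0.18 with skeletal muscle. Gatm and Gamt had -0.16 and -0.19 with smooth muscle, and -0.18 and -0.17 without the libraries highest in it. Slc6a8 had 0.26 with the Schwann cell score there, 0.15 given Xist and the Y chromosome genes and 0.11 with summed CPM as score. Without Y chromosome counts, Atp2a2 had 0.46 with the triglyceride and 0.14 with the adipocyte score, Alpl -0.086 with the adipocyte score (-0.0046 given Xist and the Y chromosome genes), and Slc6a8 0.053 with the endothelial score. Slc6a8, Gatm and Gamt had 0.12, 0.26 and 0.0096 with the mesothelium score. The causes of these changes were not tested. The analyses without the libraries highest in smooth muscle markers, with smooth muscle or macrophage covariates and without DO283 and DO379 were chosen after seeing the data. No paired analysis was possible because the labels give 1 group without replicate numbers shared between groups.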
